A study of Mus musculus with 2 samples.

Results

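The genes described here are the translation factors and aminoacyl-tRNA synthetases of sorted spleen CD8+ regulatory T cells. They were chosen by symbol, as every listed gene whose name starts with Eif or Eef or that names a tRNA synthetase, and 4 genes were left out by the rule (Eif2s3y, Eif2ak2, Eif4ebp1 and Eif4ebp2). This gave 100 of the 22609 genes listed, of which 54 are Eif genes, 9 are Eef genes and 37 are synthetases. The symbol Eif2c is an older name of the Argonaute genes, so 4 of the Eif genes (Eif2c1 to Eif2c4) encode small-RNA binding proteins and not initiation factors.

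RNA was measured in 1 library of CD8+ regulatory T cells from Tgfbr2-/-Eomes-/- mice, called DKO here, and 1 library of the same cells from WT mice. All mice were naive and 3 months old, and the cells were sorted from spleen by flow cytometry and not cultured. Tgfbr2 is the gene of a receptor for TGF-beta, a cytokine that restrains T cells, and Eomes that of a transcription factor that shapes CD8 memory. The sources used here do not state how the genes were deleted, in which cells, or how many mice gave each library.

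The DKO library held 19661212 gene counts and the WT library 22307065. Levels are given as CPM, a gene's count relative to the TMM-scaled library size, and each ratio is DKO over WT with an exact 95% interval of counting error. Since each genotype is 1 library, no p-value is given, nothing checks a difference against replicates, and each one compares these libraries and not the genotypes. Both targeted genes were lower in the DKO library and still counted there, Eomes at 179.5 CPM in DKO against 469 CPM in WT in the WT library and Tgfbr2 at 244 CPM in DKO against 357 CPM in WT. Cd8a had 978 CPM in the DKO library and 998 CPM in the WT library, and the CD8 T cell markers as a list a summed 5901 CPM over 7 genes in the DKO library and 6516 CPM in the WT library. Markers of other cells stood mostly higher in the DKO library. The summed level was 4952 CPM in DKO against 1858 CPM in WT for 11 myeloid and dendritic cell markers, 916 CPM in DKO against 456 CPM in WT for 6 NK cell markers and 228 CPM in DKO against 96.9 CPM in WT for 6 markers of CD4+ and FOXP3+ T cells, and in these 3 lists every gene was at least 25% higher. It was 528 CPM in DKO against 298 CPM in WT for 6 plasma cell markers, of which 3 were higher and 1 lower, and 94.1 CPM in DKO against 133 CPM in WT for 7 B cell markers, of which 4 were higher and 1 lower by the limits given below. Of 8 red cell markers 3 were measured, all higher, and the 4 globin genes were at 0 in both libraries. Reads that align to several places were not counted for any gene, so these 0 counts do not show that globin RNA was absent. The 12 proliferation markers summed to 462 CPM in the DKO library and 133 CPM in the WT library. What part these cells have in the differences below was not tested, and in bulk RNA fewer cells of a type and less RNA per cell cannot be told apart.

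Protein synthesis starts when initiation factors bring the methionyl initiator tRNA, the small ribosomal subunit and the capped mRNA together. eIF2 carries the initiator tRNA and is recharged by eIF2B, eIF3 organises the complex on the small subunit, and the eIF4 factors bind the cap and unwind the leader. Elongation factors then deliver charged tRNAs (eEF1A) and move the ribosome (eEF2), and tRNA synthetases load each amino acid on its tRNA, with separate enzymes for the cytosol and the mitochondrion in most cases. Resting T cells translate little, and activation raises translation through mTOR and MYC, while phosphorylation of eIF2 slows initiation and favours the transcription factor ATF4, which is known to raise several cytosolic synthetase genes.

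The translation genes as a whole stood slightly lower in the DKO library, by small amounts. Of the 100 genes, 98 had at least 1 CPM in either library, and the other two, Eef1a2 (an elongation factor of muscle and nerve) and Eif4e1b (a cap-binding protein of oocytes), had 0 counts in both, which allows up to 0.150 CPM in the DKO library and 0.137 CPM in the WT library (3 counts). The median log2 ratio of the 98 was -0.15, against 0.00 over all 11735 genes at that minimum, and 70 of the 98 ratios (71.4%) lay below 0, against 49.8% of all genes. A gene was counted as higher where it stood at least 25% above the WT library and as lower where it stood at least 20% below it, which is the same ratio in each direction, with an interval that left out 1. By that limit 7 of the 98 genes were higher, or 7.14%, against 25.4% of all genes, and 16 were lower, or 16.3%, against 19.4% of all genes. Of these 23 calls 30.4% were higher, against 56.6% of the calls over all genes. When the libraries were instead scaled to the median of genes with at least 100 CPM, 42.9% were higher (9 higher and 12 lower), against 68.4% over all genes. At 2-fold, 2 genes were higher (2.04%, against 11.6% of all genes) and 0 lower (against 3.6% of all genes). The share of lower genes was near that of all genes, and the share of higher ones was below it.

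Abundance moved with these shares. The median log2 ratio over all genes was 0.46 from 1 to 5 CPM, 0.18 from 5 to 20 CPM, -0.02 from 20 to 100 CPM and -0.09 at 100 CPM or more, taking the higher of the 2 libraries. Of the translation genes, 42 lay at 100 CPM or more, with a median of -0.15, and 46 lay from 20 to 100 CPM, with a median of -0.10. At 100 CPM or more, 1 of the 42 translation genes was higher (2.38%, against 8.68% of all genes at that level) and 5 were lower (11.9%, against 18.3%). From 20 to 100 CPM, 4 of the 46 were higher (8.70%, against 19.4% of all genes there) and 10 were lower (21.7%, against 19.0%). In these 2 ranges the offset from genes of like abundance was thus smaller than the offset from all genes. The 9 translation genes from 5 to 20 CPM had a median of -0.17 and lay farther from the 0.18 of all genes there, and Eif2c4 was the 1 gene below 5 CPM.

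**Figure D1:**
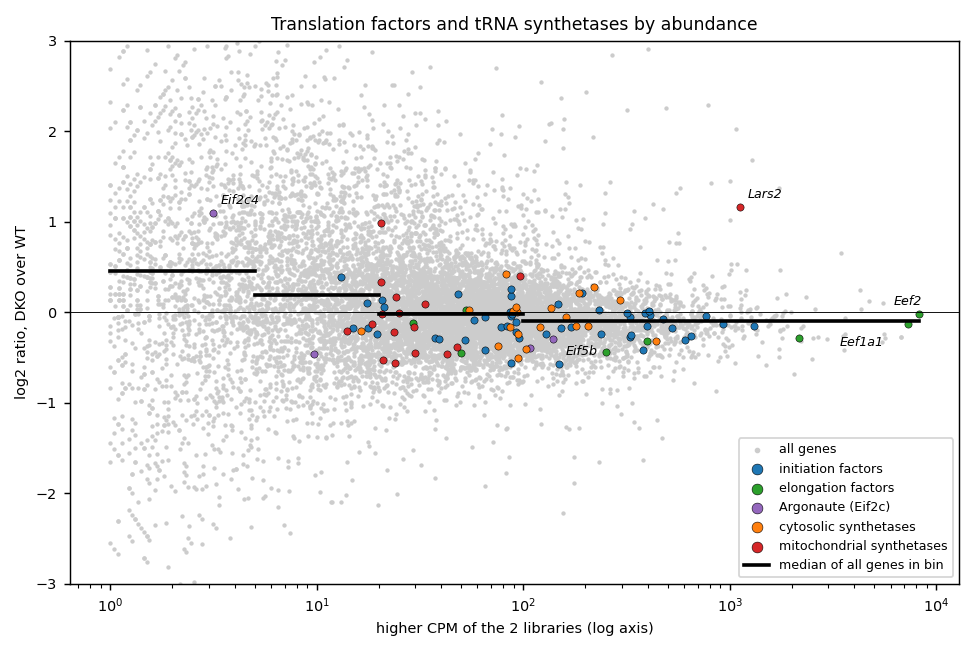
Log2 ratio of DKO over WT (vertical axis) against the higher CPM of the 2 libraries (horizontal log axis) for all genes with at least 1 CPM (grey) and for the translation genes (coloured by class), with black bars at the median of all genes in 4 ranges of CPM. Most translation genes lie at or just below the bars, Lars2 stands apart at a log2 ratio of 1.17, and 355 genes fall outside the range drawn.

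Together the 100 genes took 3.24% of all gene counts in the DKO library and 3.32% in the WT library, and 3 elongation factor genes made up about as much as the other 97. Eef2, Eef1a1 and Eef1b2 took 1.68% of gene counts in the DKO library and 1.74% in the WT library. Genes with many counts have narrow intervals, and 68 of the 98 intervals left out a ratio of 1, against 8394 of 11735 over all genes. Such an interval leaves out the variation between mice.

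Among elongation factors, the 2 that act on the ribosome itself differed little and the exchange factor subunits were lower. Eef2, the translocase, had 8107 CPM in the DKO library and 8239 CPM in the WT library, a log2 ratio of -0.02 that turned positive when libraries were scaled by their totals. Eef1a1, which delivers charged tRNA, had 6655 CPM in the DKO library and 7299 CPM in the WT library and was 1.10-fold lower in the DKO library (interval 1.089 to 1.105). The 3 subunits of eEF1B, which recharges eEF1A with GTP, were all lower by more than that. Eef1b2 had 1769.8 CPM in the DKO library against 2162 CPM in the WT library and was 1.22-fold lower (1.20 to 1.24). Eef1d had 319 CPM in DKO against 397 CPM in WT, a log2 ratio of -0.32 that fell just short of the limit. Eef1g had 186 CPM in DKO against 252 CPM in WT and was 1.35-fold lower (1.30 to 1.41).

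Eef1e1, a scaffold of the multi-synthetase complex that carries an elongation factor symbol, had 36.3 CPM in the DKO library against 49.8 CPM in the WT library and was 1.37-fold lower (1.248 to 1.51). The kinase that inhibits eEF2, Eef2k, had 27.2 CPM in the DKO library and 29.4 CPM in the WT library and an interval that held 1. The selenocysteine elongation factor Eefsec stood at 52.9 CPM in the DKO library and 51.9 CPM in the WT library, a log2 ratio of 0.03. Over the 8 measured genes of this class, 0 counted as higher (against 25.4% of all genes) and 2 as lower (25%, against 19.4%). The median log2 ratio of the class was -0.21.

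The eIF2 and eIF2B genes differed little. Of the 11, 0 passed the limit, against 25.4% of all genes higher and 19.4% lower. A log2 ratio below 0 was found for 8 (72.7%, against 49.8% of all genes). The median of the 11 was -0.06 and turned to 0.04 under scaling to genes with at least 100 CPM. Of the 3 eIF2 subunits, Eif2s1, the alpha subunit that the stress kinases phosphorylate, had 78.8 CPM in the DKO library and 91.8 CPM in the WT library and was 1.16-fold lower (1.09 to 1.24), while Eif2s2 and Eif2s3x had intervals that held 1. Of the 5 subunits of the exchange factor eIF2B, Eif2b4 was 1.23-fold lower (1.13 to 1.35), Eif2b1 was 1.15-fold higher (1.05 to 1.255) and the other three had intervals that held 1. Eif5, the GTPase activator of eIF2 and the gene with the most counts of this class, had 271 CPM in the DKO library against 328 CPM in the WT library and was 1.21-fold lower (1.17 to 1.254). Eif2a, an alternative carrier of initiator tRNA despite its name, had 87.7 CPM in the DKO library against 73.4 CPM in the WT library and stood 1.19-fold higher (1.12 to 1.28).

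The 3 eIF2 kinases among these genes went both ways. Eif2ak3 (PERK, the kinase of endoplasmic reticulum stress) had 30.6 CPM in the DKO library and 37.3 CPM in the WT library and was 1.22-fold lower (1.10 to 1.35). Eif2ak1, the haem-regulated kinase, had 87.2 CPM in DKO against 76.8 CPM in WT and was 1.14-fold higher (1.06 to 1.21). Eif2ak4 (GCN2, the sensor of uncharged tRNA) had 17.6 CPM in DKO against 16.4 CPM in WT, with an interval that held 1.

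Subunits of eIF3 lay near level. The 13 genes had a median log2 ratio of -0.04, which turned to above 0 under scaling by library totals, and the 12 other than Eif3j lay between -0.25 and 0.09. Eif3f, the subunit with the most counts, had 743 CPM in the DKO library and 765 CPM in the WT library, with a log2 ratio of -0.04. The lowest ratios were those of Eif3d, a subunit that can bind the cap, at 279 CPM in DKO against 332 CPM in WT, 1.19-fold lower (1.15 to 1.23), and Eif3g, at 200 CPM in DKO against 237 CPM in WT, 1.19-fold lower (1.14 to 1.24). Eif3a, the scaffold subunit, had 358 CPM in DKO against 396 CPM in WT and was 1.11-fold lower (1.07 to 1.14). Eif3j, a loosely bound subunit, was the 1 gene past the limit (7.69% higher, against 25.4% of all genes, and 0 lower, against 19.4%). It had 13.1 CPM in DKO against 9.98 CPM in WT, from 261 counts in the DKO library and 219 in the WT library. That was 1.31-fold higher (1.09 to 1.57). Eif3j had no match in the annotation used, so whether its sequence also occurs in other genes was not checked.

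Of the 12 measured eIF4 genes, 10 had a log2 ratio below 0 (83.3%, against 49.8% of all genes). Their median was -0.17, and -0.08 under scaling to genes with at least 100 CPM. By the limit, 0 counted as higher (against 25.4% of all genes) and 2 as lower (16.7%, against 19.4%). Both helicase genes passed the limit. Eif4a1 had 49.0 CPM in the DKO library and 65.5 CPM in the WT library and was 1.34-fold lower (1.23 to 1.45), and Eif4a2 had 283 CPM in DKO against 378 CPM in WT and was also 1.34-fold lower (1.29 to 1.38). Their ratios were thus alike, although Eif4a1 is known as the form of growing cells and Eif4a2 as that of resting ones. Eif4a1 lies below Eif4a2 also per length of exon, at 27.6 against 88.6 CPM per kb in the DKO library and 36.9 against 118 CPM per kb in the WT library. Its level is uncertain, since 65.3% of the 50-base windows of its transcripts also occur in transcripts of other genes, of which the pseudogene Eif4a-ps4 shares the most.

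The cap-binding protein gene Eif4e had 31.8 CPM in the DKO library and 39.1 CPM in the WT library and was 1.23-fold lower (1.11 to 1.37). Eif4g1, the scaffold that joins cap and helicase, had 492 CPM in DKO against 608 CPM in WT and was 1.24-fold lower (1.20 to 1.27). The gene with the most counts of the class, Eif4g2, which lacks the cap-binding part and serves other initiation routes, had 1180.4 CPM in DKO against 1312 CPM in WT and was 1.11-fold lower (1.09 to 1.13). Of the cofactors of the helicase, Eif4b had 847 CPM in DKO against 931 CPM in WT, a log2 ratio of -0.14, and Eif4h had 408 CPM in DKO against 403 CPM in WT, a log2 ratio of 0.02. Eif4a3, a related helicase that marks exon junctions and not an initiation factor proper, had 78.3 CPM in DKO against 95.8 CPM in WT and was 1.22-fold lower (1.15 to 1.31).

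The lowest ratios of all initiation factor genes belonged to a pair that acts when the ribosomal subunits join. Eif5b, the GTPase of subunit joining, had 100.3 CPM in the DKO library and 149 CPM in the WT library and was 1.48-fold lower (1.40 to 1.57). Eif1ax, an X-linked gene for eIF1A, which binds eIF5B at that step, had 59.2 CPM in DKO against 87.3 CPM in WT and was 1.47-fold lower (1.37 to 1.59). The close relative Eif1a had 86.1 CPM in each library and a log2 ratio of 0.00.

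Start-site selection factor Eif1 had 109 CPM in the DKO library and 129 CPM in the WT library and was 1.18-fold lower (1.12 to 1.253). Eif5a, which relieves stalled ribosomes, had 542 CPM in DKO against 650 CPM in WT and was 1.20-fold lower (1.17 to 1.23). Eif6, which keeps the large subunit apart and works in ribosome assembly, had 192 CPM in DKO against 166 CPM in WT and was 1.16-fold higher (1.11 to 1.21). Of the 9 genes of this class, 0 counted as higher (against 25.4% of all genes), 2 as lower (22.2%, against 19.4%) and 7 as neither. The median log2 ratio of the class was -0.24.

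The 4 Argonaute genes carried under the Eif2c symbol went both ways, with 2 lower, 1 higher and 1 neither. Over all genes, 19.4% were lower and 25.4% higher. Eif2c1 and Eif2c2 had 114 and 81.6 CPM in the DKO library, against 140 and 108 CPM in the WT library. Eif2c2, whose product cuts targets, was 1.32-fold lower (1.24 to 1.41), and Eif2c1 was 1.23-fold lower (1.16 to 1.30). Eif2c4 had 63 counts in the DKO library against 32 in the WT library and stood 2.16-fold higher (1.39 to 3.42), at 3.15 CPM in the DKO library and 1.46 CPM in the WT library, and of all genes between 1 and 5 CPM, 35.0% were at least 2-fold higher. Eif2c3 had 7.05 CPM in the DKO library and 9.71 CPM in the WT library and was 1.38-fold lower (1.11 to 1.72).

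**Figure D2:**
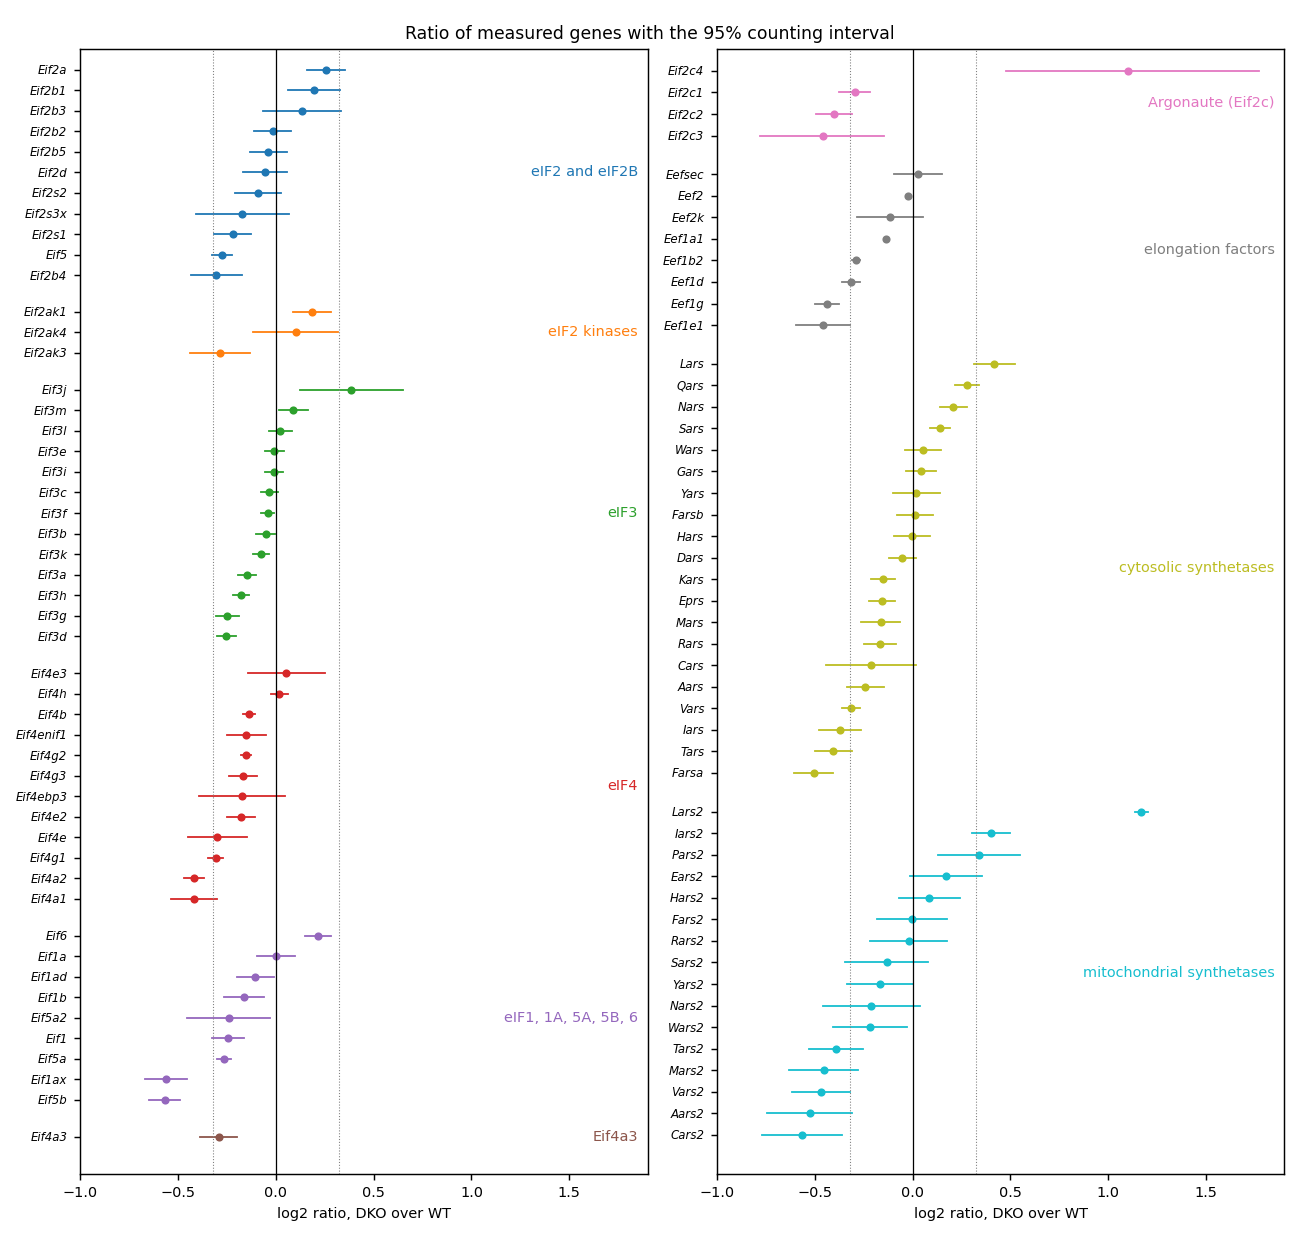
Log2 ratio of DKO over WT (horizontal axis) of 97 of the 98 measured genes, one per line by class, with its exact 95% counting interval as a bar and dotted lines at 25% higher and 20% lower. The eIF3 subunits lie close to 0 apart from Eif3j, Eif5b and Eif1ax lie lowest among initiation factors at -0.57 and -0.56, and the mitochondrial synthetases spread from -0.56 for Cars2 to 1.17 for Lars2.

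Cytosolic tRNA synthetases as a class were close to level. The 20 genes summed to 2587 CPM in the DKO library and 2707 CPM in the WT library, and their median log2 ratio was -0.10. By the limit above, 1 was higher (5%, against 25.4% of all genes), 3 lower (15%, against 19.4%) and 16 neither. Farsa, the catalytic subunit of the phenylalanine enzyme, had 66.5 CPM in the DKO library and 94.4 CPM in the WT library and was 1.42-fold lower (1.32 to 1.52). Its partner subunit Farsb had 89.6 CPM in DKO against 88.8 CPM in WT and a log2 ratio of 0.01, so the 2 genes of this enzyme did not share a ratio. Tars (threonine) had 77.8 CPM in DKO against 103 CPM in WT and was 1.32-fold lower (1.24 to 1.41), and Iars (isoleucine) had 58.3 CPM in DKO against 75.4 CPM in WT and was 1.29-fold lower (1.20 to 1.40).

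Lars (leucine) was the 1 higher gene, at 82.8 CPM in the DKO library against 62.0 CPM in the WT library, or 1.33-fold (1.24 to 1.44). Qars (glutamine) had 219 CPM in DKO against 181 CPM in WT and was 1.21-fold higher (1.16 to 1.27), and Nars (asparagine) had 186 CPM in DKO against 161 CPM in WT and was 1.16-fold higher (1.10 to 1.21). Vars (valine), which had the most counts of these genes, stood at 354 CPM in DKO against 440 CPM in WT and was 1.24-fold lower (1.21 to 1.28), just short of the limit. Kars and Gars each serve cytosol and mitochondrion. Kars (lysine) had 186 CPM in DKO against 206 CPM in WT and a log2 ratio of -0.15, and Gars (glycine) had 136 CPM in DKO against 132 CPM in WT and a log2 ratio of 0.04.

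The promoters of cytosolic synthetase genes are where ATF4 is known to act, through the C/EBP-ATF response element. Its core TGATGCAA was searched on both strands of RefSeq promoter windows (build GRCm38.p6, 250 bases before and 50 after the start, so not the mm9 build of the counts), which were found for 75 of the 100 genes. Of 32851 windows in all, 0.895% held it. Such shares count windows, while a gene was counted if any of its windows held the letters. Among the translation genes the core was found in 4, namely Aars, Iars, Tars and Yars. All of them are among the 12 cytosolic synthetases with a window, and the core was found in 0 of 14 mitochondrial synthetases. The E-box CACGTG, the site of MYC and related factors, occurred in 7.15% of all windows and in 17 of the 75 genes, and of these 4 windows Aars, Iars and Tars held it and Yars did not. The windows are printed because these 4 genes share the element, with the core or its reverse complement TTGCATCA in capitals. Aars lies at chr8:111033592-111033891 (plus strand), Iars at chr13:49681880-49682179 (plus), Tars at chr15:11399609-11399908 (minus) and Yars at chr4:129189653-129189952 (plus), and each is 300 bases, 5′ to 3′ on the gene's strand.
Aars: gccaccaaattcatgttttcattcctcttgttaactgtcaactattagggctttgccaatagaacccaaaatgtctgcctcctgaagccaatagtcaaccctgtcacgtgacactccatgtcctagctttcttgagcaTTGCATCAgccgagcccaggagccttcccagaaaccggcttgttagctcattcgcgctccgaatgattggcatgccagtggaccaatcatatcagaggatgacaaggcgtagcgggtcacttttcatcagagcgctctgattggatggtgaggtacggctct
Iars: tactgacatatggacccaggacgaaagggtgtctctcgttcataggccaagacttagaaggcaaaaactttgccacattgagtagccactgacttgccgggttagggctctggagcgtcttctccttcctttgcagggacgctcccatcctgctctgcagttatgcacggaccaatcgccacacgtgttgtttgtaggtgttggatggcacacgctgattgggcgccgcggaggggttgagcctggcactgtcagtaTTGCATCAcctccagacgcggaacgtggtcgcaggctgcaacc
Tars: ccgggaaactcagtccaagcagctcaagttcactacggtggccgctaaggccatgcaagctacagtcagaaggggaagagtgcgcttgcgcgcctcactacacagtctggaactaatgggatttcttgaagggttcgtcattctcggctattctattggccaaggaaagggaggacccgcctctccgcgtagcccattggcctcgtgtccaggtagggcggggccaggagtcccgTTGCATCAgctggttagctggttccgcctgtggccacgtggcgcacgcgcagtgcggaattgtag
Yars: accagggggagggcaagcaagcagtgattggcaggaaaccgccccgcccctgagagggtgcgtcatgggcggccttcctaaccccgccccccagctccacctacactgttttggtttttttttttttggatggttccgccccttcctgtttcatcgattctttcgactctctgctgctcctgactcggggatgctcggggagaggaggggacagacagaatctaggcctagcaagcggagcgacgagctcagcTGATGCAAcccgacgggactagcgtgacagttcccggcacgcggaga

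Set beside these sequences, Iars and Tars counted as lower in DKO, Aars (alanine) had 79.7 CPM in the DKO library and 94.3 CPM in the WT library and was 1.18-fold lower (1.11 to 1.26), and Yars (tyrosine) had 54.5 CPM in DKO against 53.7 CPM in WT, with a log2 ratio of 0.02. Atf4 transcripts had 246 CPM in the DKO library and 278 CPM in the WT library and were 1.13-fold lower (1.09 to 1.17). A match to these letters is not a measured binding site, and other forms of the element were not searched. The shares of windows and the counts of genes are not like for like, and enrichment was not tested.

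Mitochondrial tRNA synthetases had the widest range of log2 ratios of all classes, from -0.56 to 1.17, with Lars2 at the upper end. The 4 Argonaute genes ranged from -0.46 to 1.10. Of the 17 mitochondrial synthetase genes, 4 were higher (23.5%, against 25.4% of all genes) and 5 lower (29.4%, against 19.4%). The share of higher genes was thus near that of all genes. The other 8 were neither, and the median log2 ratio of the class was -0.13. The lower ones were Cars2, with 16.2 CPM in the DKO library and 24.0 CPM in the WT library (1.48-fold, 1.29 to 1.70), Aars2, with 14.5 CPM in DKO against 20.9 CPM in WT (1.44-fold, 1.24 to 1.67), Vars2 with 30.9 CPM in DKO against 42.7 CPM in WT, Mars2 with 21.9 CPM in DKO against 30.0 CPM in WT, and Tars2 with 36.5 CPM in DKO against 47.8 CPM in WT. Lars2, Iars2 and Pars2 were among the higher ones. Iars2 had 96.7 CPM in DKO against 73.3 CPM in WT and was 1.32-fold higher (1.23 to 1.41), and Pars2 had 20.4 CPM in DKO against 16.1 CPM in WT and was 1.26-fold higher (1.09 to 1.46).

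Lars2 had the highest ratio of the 98 translation genes. It had 22444 counts in the DKO library and 10964 in the WT library, or 1123 CPM in DKO and 500 CPM in WT, and was 2.25-fold higher (2.20 to 2.30). Per length it stood at 248 CPM per kb in the DKO library and 110 CPM per kb in the WT library, far above the next mitochondrial synthetase of the DKO library, Iars2, at 14.5 CPM per kb, and that of the WT library, Cars2, at 12.6 CPM per kb. The summed level of the class turned on Lars2, since it was 1559 CPM in the DKO library and 950 CPM in the WT library with it, and 437 CPM in DKO and 450 CPM in WT over the other 16 genes.

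Lars2 also lies on chromosome 9, as do both targeted genes. In the GRCm38 order of measured coding genes, 36 genes lay between Eomes and Lars2, with a median log2 ratio of -0.13. The genes on either side of Lars2 did not share its ratio. Tmem158 had 24 counts in the DKO library and 89 in the WT library and was 3.38-fold lower, while Limd1, on the other side, had 238 CPM in DKO against 278 CPM in WT and was 1.17-fold lower. The next 2 measured genes on each side were all higher. Cdcp1 had 52 counts in DKO against 1 in WT and Clec3b 54 counts in DKO against 16 in WT, while Sacm1l, at 95.3 CPM in DKO against 80.0 CPM in WT, was 1.19-fold and Lztfl1, at 12.5 CPM in DKO against 8.07 CPM in WT, 1.55-fold higher. Of the 50-base windows of Lars2 transcripts, 0.0663% occur in the transcripts of another gene, Gm15564. Copies outside annotated transcripts were not searched, so the level of Lars2 is uncertain to that extent.

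**Figure D3:**
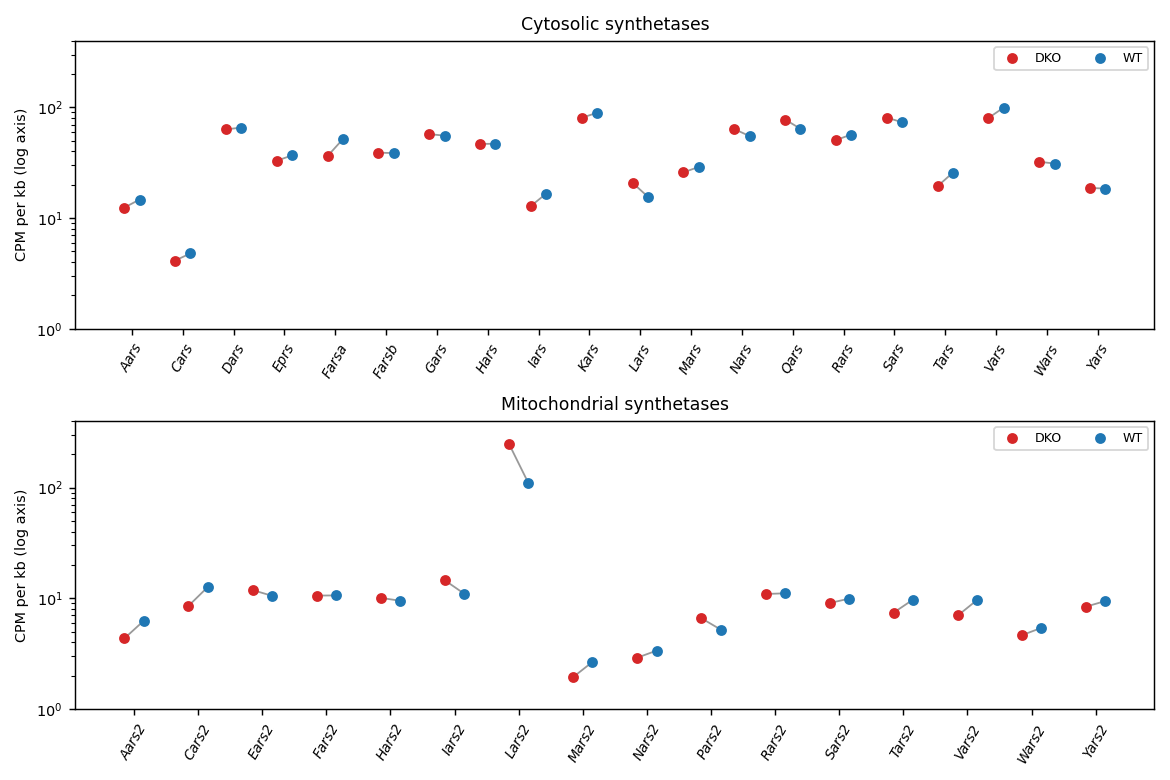
Level of the 20 cytosolic (top) and 16 of the 17 mitochondrial (bottom) tRNA synthetase genes as CPM per kb of exon on a log axis, with DKO in red to the left and WT in blue to the right. Cytosolic genes lie mostly between 10 and 100 CPM per kb and mitochondrial ones mostly below 15, with Lars2 apart at 248 in DKO and 110 in WT.

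Enzymes for the same amino acid shared a direction in some pairs and not in others. In 17 pairs of a cytosolic and a mitochondrial gene (the phenylalanine enzyme gives 2), 8 had ratios on the same side of 1. That count depends on the side taken by ratios close to level, such as those of Hars, Fars2 and Farsb. The pair of Hars and Hars2 and that of Farsb and Fars2 lay on opposite sides. The 5 mitochondrial genes counted as lower, Aars2, Cars2, Mars2, Tars2 and Vars2, each had a cytosolic partner with a log2 ratio below 0. Of these partners Tars alone passed the limit, and 12 of all 20 cytosolic genes had a log2 ratio below 0. Both leucine genes counted as higher and both threonine genes as lower. The isoleucine genes went opposite ways, with Iars lower and Iars2 higher.

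Other genes of the translation pathway were set beside them, in lists chosen with earlier results of these data known. The same holds for the MYC and stress response lists below, so the shares in these lists are not independent of the data. Of 16 release, recycling and poly(A) factors, 1 counted as higher (6.25%, against 25.4% of all genes) and 7 as lower (43.75%, against 19.4%). The other 8 counted as neither, and the median log2 ratio of the list was -0.22. Pabpc4, a poly(A)-binding protein gene, had 26.1 CPM in the DKO library and 38.3 CPM in the WT library and was 1.47-fold lower (1.32 to 1.64). Pdcd4, an inhibitor of the eIF4A helicase, had 376 CPM in DKO against 550 CPM in WT and was 1.46-fold lower (1.42 to 1.51), and Larp1, which controls mRNAs of ribosomal proteins, had 190 CPM in DKO against 271 CPM in WT and was 1.43-fold lower (1.37 to 1.49). The 1 higher gene, the release factor paralog Gspt2, had 35 counts in DKO against 0 in WT. That is 12.8-fold higher when set against a floor of 3 counts in the WT library, while the counting interval of its ratio starts at 9.87. Mcts2, a retrocopy of the recycling factor gene Mcts1, had 16 counts in DKO against 62 in WT and was 3.53-fold lower (2.01 to 6.56).

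Of 9 synthetase scaffolds and relatives, 0 counted as higher (against 25.4% of all genes) and 1 as lower (11.1%, against 19.4%). The median log2 ratio of the list was -0.18. The lower gene, Yrdc, which modifies tRNA, had 35.3 CPM in the DKO library and 53.7 CPM in the WT library and was 1.52-fold lower (1.38 to 1.67). Aimp1 and Aimp2, scaffolds of the multi-synthetase complex beside Eef1e1, had log2 ratios of -0.09 and -0.29. Among 9 mitochondrial translation factors, 0 counted as higher (against 25.4% of all genes) and 3 as lower (33.3%, against 19.4%), around a median of -0.07. The lower ones were Gfm2, Mtrf1l and Tsfm, at 1.36-fold, 1.34-fold and 1.29-fold.

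Genes of MYC and ribosome assembly were mostly lower. All 16 log2 ratios lay below 0 under TMM scaling, with a median of -0.44. By the limit, 0 counted as higher (against 25.4% of all genes), 11 as lower (68.75%, against 19.4%) and 5 as neither. The ratios nearest 0 were -0.05 for Rrn3 and -0.06 for Wdr12, less than the 0.10 by which the median of all genes stood above 0 when scaled to genes with at least 100 CPM. Myc itself had 98.8 CPM in the DKO library and 155 CPM in the WT library and was 1.56-fold lower (1.48 to 1.65). Bop1, which processes the large-subunit rRNA, had 90.9 CPM in DKO against 155 CPM in WT and was 1.71-fold lower (1.61 to 1.81), Fbl, the rRNA methyltransferase, was 1.65-fold lower (1.46 to 1.88) and Dkc1, which makes pseudouridine in rRNA, was 1.64-fold lower (1.56 to 1.72). In the same libraries Mki67, a marker of cycling cells, had 103 CPM in the DKO library against 34.2 CPM in the WT library.

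The integrated stress response list, which holds known ATF4 targets, was mixed. Of 18 measured genes of 20, 4 counted as higher (22.2%, against 25.4% of all genes) and 5 as lower (27.8%, against 19.4%). The other 9 counted as neither, and the median log2 ratio of the list was -0.06. The genes higher by 2-fold were few in counts. Trib3, a pseudokinase that feeds back on ATF4, had 105 counts in the DKO library and 14 in the WT library and was 8.23-fold higher (4.69 to 15.6). It had 5.25 CPM in the DKO library, and of all genes between 5 and 20 CPM, 18.8% were at least 2-fold higher. The cystine transporter gene Slc7a11 had 26 counts in DKO against 0 in WT. That is 9.51-fold higher against the same floor, with a counting interval that starts at 7.20. Slc7a11 lay between 1 and 5 CPM, where 35.0% of all genes were at least 2-fold higher. Atf5 had 14.4 CPM in DKO against 7.29 CPM in WT and was 1.97-fold higher (1.62 to 2.40). Cebpb, a transcription factor that pairs with ATF4, had 61.9 CPM in DKO against 48.0 CPM in WT and was 1.29-fold higher (1.19 to 1.40). The lower ones included Ddit4, an inhibitor of mTOR, at 214 CPM in DKO against 342 CPM in WT and 1.60-fold lower (1.54 to 1.66), Ppp1r15a, which returns eIF2 to its unphosphorylated form, at 80.8 CPM in DKO against 121 CPM in WT and 1.49-fold lower (1.40 to 1.59), and Phgdh, the first enzyme of serine synthesis, at 30.5 CPM in DKO against 41.3 CPM in WT and 1.36-fold lower (1.22 to 1.51). Asns, the asparagine synthetase gene, had 89 counts in the DKO library and 76 in the WT library and an interval that held 1.

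**Figure D4:**
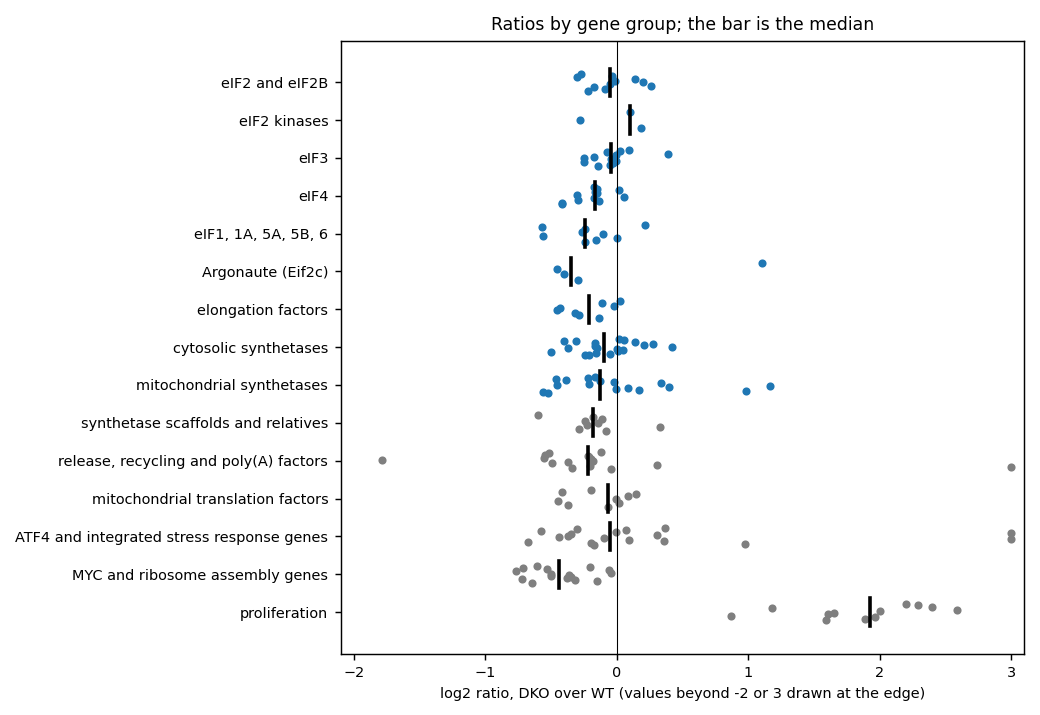
Log2 ratio of DKO over WT (horizontal axis) of every measured gene by group, with the translation genes in blue, other lists in grey and a black bar at each median. The medians of the blue groups lie between -0.35 for the Argonaute genes and 0.10 for the eIF2 kinases, that of MYC and ribosome assembly genes at -0.44 and that of proliferation markers at 1.93.

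Reads that align to several places limit several of these levels. In annotated transcripts, 17 of the 99 genes matched to the annotation shared over 5% of their 50-base windows with another gene, and 3 shared over 50%, namely Eif4a1, Eef1g (64.3%) and Eef1a1 (51.2%). Exons of 21 genes overlapped another coding gene, among them Iars2 (Rab3gap2), Eif5b (Rev1), Eif4a2 (Rfc4), Aars (Exosc6) and the Hars and Hars2 pair, and without a stated strand setting reads of such neighbours cannot be told apart. Over the 62 measured genes with at most 5% shared and no such overlap, the median log2 ratio was -0.15, the same as over all 98.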

How the data were processed

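Each of the 2 libraries came as a deposited table of raw read counts by gene symbol. Per the labels' protocols, total RNA libraries were sequenced as 50-base single-end reads. Tools named in the submitters' processing notes were TopHat2 2.0.8b, HTSeq and bcl2fastq, with the build mm9. The annotation and the strand setting were not stated in the sources used here. The 5 rows that name no gene were left out of library sizes. Of each file's total, non-unique alignments made up 64.8% in DKO and 66.4% in WT, reads outside genes 4.45% and 4.89%, and ambiguous reads 0.212% and 0.209%.

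Counts were scaled by TMM in edgeR 4.0.16 (R 4.3.3), with factors of 1.02 for DKO and 0.983 for WT. Log2 ratios used a prior count of 0.5. Intervals are exact Clopper-Pearson 95% intervals of the DKO share of both counts, as a ratio (scipy 1.17.1). No molecular identifiers are named in the labels, so a read need not be a separate molecule. Intervals and floors therefore cover counting error only. With 1 library per genotype no test could be fitted. Calls needed 1 CPM in either library, a ratio past 25% higher, 20% lower or 2-fold, and an interval that left out 1. The calculation was checked on simulated data. Lengths, shared windows and overlaps came from GENCODE M21 (GRCm38), and 1 gene had no match (Eif3j). Windows are the 50-base stretches of a gene's coding transcripts found in transcripts of genes elsewhere. Named genes were, in each class, the most abundant, those past 2-fold and those of largest ratio at 5 CPM or more, and their close relatives. The members and lists were chosen with earlier results of these data known. Alternatives were scaling by totals or DESeq2 1.42.0 size factors, other minimums and a prior count of 5. The values of 1 gene are not reported here, and it is counted in the totals.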

Additional observations from a re-analysis of the deposited data

How the results depend on the processing

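No paired analysis was possible because each genotype has 1 library, and none could be left out. The median log2 ratio of the translation genes, -0.15, was -0.10 under scaling by library totals, where the median of all genes was 0.05, and lay between -0.15 and -0.10 over the 5 other settings of scaling, minimum and prior count. The count of 2 genes at least 2-fold higher fell to 1 with a minimum of 5 CPM, which leaves out Eif2c4, and was 3 under library totals. The count of lower genes was 16 under each of these 5, and that of higher genes lay between 6 and 8. No gene past the limit of 25% higher or 20% lower changed sign under any alternative run. For the scalings this was fixed in advance. Each shifts all log2 ratios by the same amount, 0.05 for library totals, which is smaller than the limit. Under library totals 10 of the other genes changed sign, among them Eef2 and the eIF3 subunits Eif3c, Eif3e, Eif3f and Eif3i. The median of eIF3 subunits was 0.01.

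After the data were seen, scaling to the median of genes with at least 100 CPM was added, since ratios fell with abundance. It gave a median of -0.06 for the translation genes and 0.10 for all genes, with 9 genes higher and 12 lower by that limit (42.9% of calls higher, against 30.4%). Over all genes it gave 30.4% higher and 14.0% lower, so that 68.4% of calls were higher, against 56.6%. The medians of eIF2 and eIF2B genes and of eIF3 subunits turned to 0.04 and 0.05. With only the genes of few shared windows and no exon overlap, also added, 10 genes were lower and 5 higher, because 62 in place of 98 were counted, and the median of the eIF2 kinases turned to -0.09, against 0.10.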
